A study of Mus musculus with 32 samples.

Results

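The circadian clock genes followed here are the 10 genes Arntl, Clock, Npas2, Cry1, Per1, Per2, Per3, Nr1d1, Nr1d2 and Dbp, chosen by symbol from the 29511 genes of the count table. All 10 were found in the counts and in the FPKM (fragments mapped, scaled to transcript length and library size). RNA was sequenced from 20 lungs and 12 primary tumors of female FVB/N mice, littermates aged 6 to 8 weeks when used. The hosts were wildtype (WT) or Clic4 knockout in all their cells (KO). Control lungs came from mice without a tumor (4 WT, 4 KO). The 14-day lungs and the tumors were taken 14 days after a mammary fat pad had received 6DT1 cells, a mouse mammary tumor line of the same strain (6 WT and 6 KO hosts for each tissue). The 6DT1 cells carry Clic4 in both hosts, so that tumors from KO hosts lack it in host cells only. The hour at which each mouse was killed and the lighting schedule are not given in the sources used here.

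The mammalian clock is a feedback loop of transcription. The proteins of Arntl (also called Bmal1) and Clock, or Npas2 in place of Clock, pair and bind E-box sequences, and so switch on the Per and Cry genes, Nr1d1, Nr1d2 and Dbp. PER and CRY proteins then inhibit the pair, while the REV-ERB receptors encoded by Nr1d1 and Nr1d2 repress Arntl through ROR elements. DBP, an output factor, binds D-boxes, which drive Per genes among others. In peripheral tissues such as lung, Arntl is therefore known to peak at a time of day opposite to that of Nr1d1, Dbp and Per3, with Cry1 late in the sequence.

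The promoters of 9 members were found in RefSeq sequence of GRCm38.p6, from 250 bases before a start site to 50 bases after it. Of those with a match to the letters of a clock element, 4 are shown. They were chosen to give an example of the E-box, the D-box and the ROR element in the genes that the loop drives. The elements searched on both strands were the E-box CACGTG, the related CACGTT, the D-boxes TTATGTAA and TTACGTAA, the ROR element core AGGTCA and the cAMP response element TGACGTCA. None of these letter strings contains another. They occurred in 7.15%, 4.68%, 0.938%, 0.119%, 16.3% and 1.79% of all 32851 promoters of that length. Of the 13 member promoters, 7 held at least 1 match. The share of all promoters with at least 1 of these strings was not counted. In Arntl, Clock and Nr1d2 the only match was AGGTCA, the most common of the strings (16.3%). Dbp and Npas2 had none in this window. Matches are in capitals and lower case marks the remainder:
Cry1, chr10:85185005-85185304, minus strand: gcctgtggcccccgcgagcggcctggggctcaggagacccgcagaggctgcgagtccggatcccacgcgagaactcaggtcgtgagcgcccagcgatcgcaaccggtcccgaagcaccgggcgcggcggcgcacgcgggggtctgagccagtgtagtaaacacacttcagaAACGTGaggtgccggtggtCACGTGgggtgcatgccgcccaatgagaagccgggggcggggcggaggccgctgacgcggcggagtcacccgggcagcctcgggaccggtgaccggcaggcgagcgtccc
Per1, chr11:69098699-69098998, plus strand: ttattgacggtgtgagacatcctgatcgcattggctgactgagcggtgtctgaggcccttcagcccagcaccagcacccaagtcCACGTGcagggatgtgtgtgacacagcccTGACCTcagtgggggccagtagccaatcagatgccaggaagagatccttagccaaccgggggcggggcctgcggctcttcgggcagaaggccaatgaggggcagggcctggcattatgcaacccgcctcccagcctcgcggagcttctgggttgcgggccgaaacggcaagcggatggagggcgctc
Per3, chr4:151044616-151044915, minus strand: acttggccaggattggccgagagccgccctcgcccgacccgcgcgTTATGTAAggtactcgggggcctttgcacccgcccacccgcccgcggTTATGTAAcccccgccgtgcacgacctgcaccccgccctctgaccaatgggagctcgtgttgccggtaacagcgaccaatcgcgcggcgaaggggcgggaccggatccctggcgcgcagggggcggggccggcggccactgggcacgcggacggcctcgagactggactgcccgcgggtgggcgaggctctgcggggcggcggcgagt
Nr1d2, chr14:18239057-18239356, minus strand: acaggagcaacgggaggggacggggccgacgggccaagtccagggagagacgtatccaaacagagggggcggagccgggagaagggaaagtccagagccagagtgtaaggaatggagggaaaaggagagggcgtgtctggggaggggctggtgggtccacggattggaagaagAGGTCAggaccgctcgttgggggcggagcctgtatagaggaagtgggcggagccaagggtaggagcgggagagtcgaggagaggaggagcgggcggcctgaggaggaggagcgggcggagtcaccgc

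The Cry1 promoter held CACGTG from 60 bases and CACGTT, read on the opposite strand, from 79 bases upstream of the start. The start of Per1 shown is 1 of 2 and had CACGTG from 166 and AGGTCA, on the opposite strand, from 137 bases upstream. The Per3 promoter held TTATGTAA at both 205 and 158 bases upstream. For Nr1d2, AGGTCA began 77 bases upstream. Not shown are a CACGTT 28 bases upstream in Nr1d1, an AGGTCA 119 bases upstream of 1 of 3 Clock starts, and an AGGTCA 32 bases downstream of 1 of 2 Arntl starts.

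Between 4446323 and 8318711 counts were assigned to genes per sample, with a median of 5384934. Clic4 gave 154.6 to 229.7 FPKM in WT lungs and 55.42 to 74.56 in KO lungs, from the part of the gene that the deletion leaves, and 58.92 to 82.23 in tumors. Summed FPKM of the 6 lung epithelium markers was 32330 to 38850 in lungs and 0.34 to 3.24 in tumors. The 7 neutrophil markers summed to 69.03 to 182.0 in control lungs and 56.48 to 807.8 in 14-day lungs.

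Levels were compared between members on the FPKM scale, which accounts for length. In the 20 lungs the median FPKM ran from Nr1d2 (52.11), Dbp (47.89) and Per1 (46.74) through Nr1d1 (33.9), Per3 (27.1), Clock (20.37) and Per2 (17.12) to Cry1 (4.525), Arntl (2.32) and Npas2 (0.39). Each gene overlapped in range with its neighbour in this order, though Npas2, at 0.11 to 0.99 FPKM, met Arntl, at 0.88 to 5.82, only at the edge. In the 12 tumors the order was Nr1d2 (17.97), Per1 (17.84), Clock (15.09), Nr1d1 (7.225), Dbp (6.695), Per2 (6.065), Arntl (5.905), Per3 (4.78), Cry1 (3.22) and Npas2 (0.22). Ranges overlapped between neighbours except that Clock (12.16 or more) lay above Nr1d1 (8.25 or less) and Cry1 (1.96 or more) above Npas2 (0.61 or less). Npas2 rested on 2 to 16 counts a sample and Arntl in lungs on 13 to 96, so their values carry the largest counting error.

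**Figure D1:**
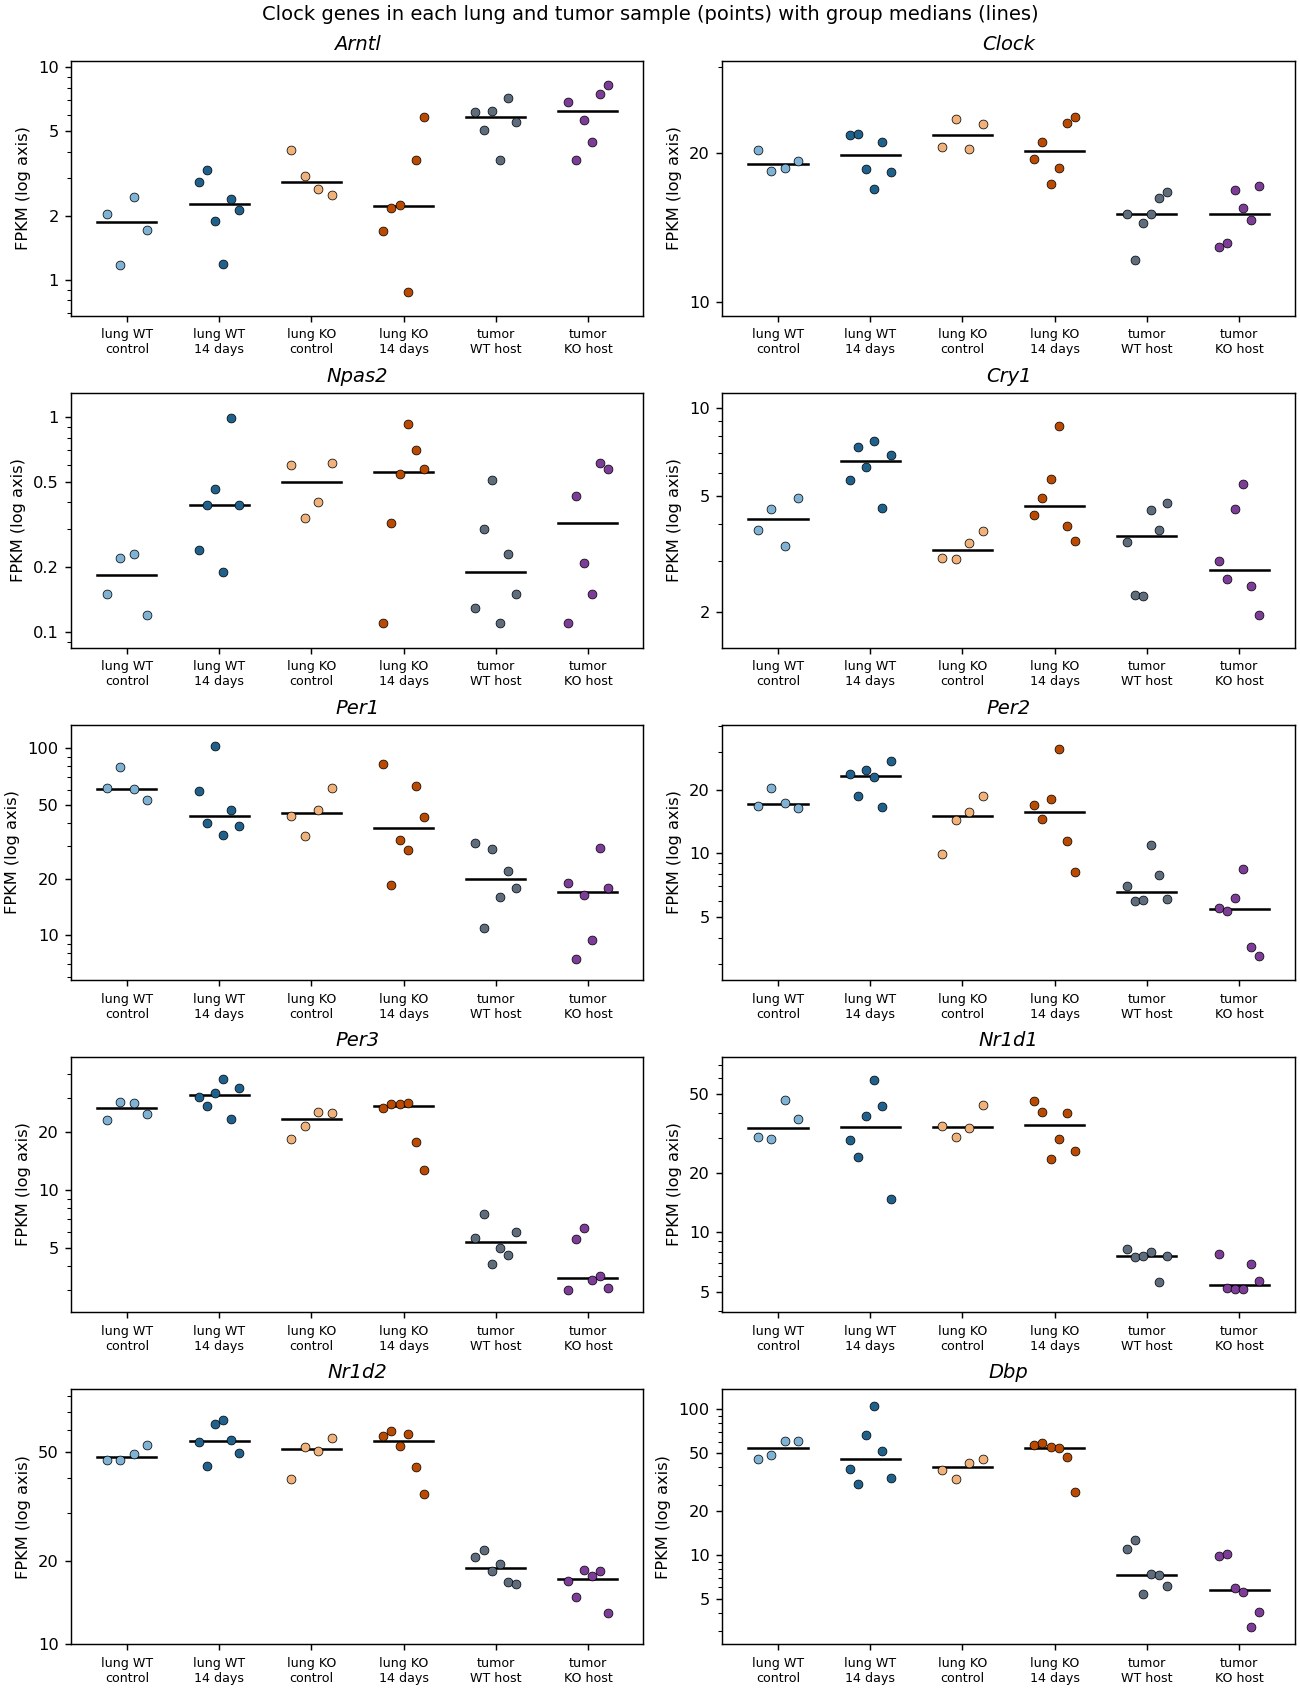
FPKM of the 10 clock genes (log axes) in every lung and tumor sample, with points for samples and lines for group medians. Tumors lie below lungs for Per3, Nr1d1, Nr1d2 and Dbp and mostly above them for Arntl, while lung groups overlap for most genes.

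Lungs of 1 group differed widely in clock genes. Arntl ranged from 0.88 FPKM in KO 14-day lung 4 to 5.82 in KO 14-day lung 6, a 6.61-fold range across the 20 lungs, with both extremes in 1 group. Those lungs were also the extremes of Per2, with 30.93 FPKM in lung 4 and 8.14 in lung 6, in the opposite order. WT 14-day lung 4 stood out in the same way, with 105.6 FPKM of Dbp, 58.69 of Nr1d1, 65.01 of Nr1d2 and 37.79 of Per3, the highest values of all lungs, and the lowest Clock (16.91). Per1 spread from 18.59 to 102.3 FPKM and Clock only from 16.91 to 23.71.

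The spread within groups was measured as the biological coefficient of variation, the relative spread left after counting error. Its median over the members was 0.27 in lungs, against 0.0855 over all genes tested. Arntl (0.393), Per1 (0.377), Nr1d1 (0.316), Dbp and Per2 (both 0.298) varied most. Clock, whose mRNA is known to cycle weakly in most tissues, stood at 0.0797. In tumors the median was 0.23 over the 9 members that could be tested and 0.102 over all genes. Per1 (0.39) and Cry1 (0.329) varied most there, and Nr1d1 stood at 0.113.

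To ask whether the members vary together, Arntl was correlated with every other member on TMM-normalized log2 CPM (counts scaled to library size), with two-sided permutation tests of 100000 resamples adjusted over the 17 relations in both tissues. Of the 9 relations in lungs (n = 20), 7 passed. Clock rose with Arntl (Pearson r = 0.85, Spearman rho = 0.88, permutation p = 1e-05, the smallest these resamples can give, adjusted p = 0.00017), as did Npas2 (r = 0.54, rho = 0.62, permutation p = 0.0124, adjusted p = 0.025). These are the partners of Arntl in the loop.

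Genes of the opposite arm ran against Arntl. The values were r = -0.76, rho = -0.61, permutation p = 0.0001 and adjusted p = 0.00085 for Per2, and r = -0.74, rho = -0.62, permutation p = 0.00028 and adjusted p = 0.00159 for Per3. Nr1d2 gave r = -0.68 and rho = -0.64 (permutation p = 0.00095, adjusted p = 0.00404), and Dbp r = -0.66 and rho = -0.67 (permutation p = 0.00182, adjusted p = 0.00619). Cry1 gave r = -0.59 and rho = -0.55 (permutation p = 0.00624, adjusted p = 0.0177). Each of these genes thus tended to be lower in lungs with more Arntl, with exceptions such as WT 14-day lung 2, at 3.28 FPKM of Arntl and 7.36 of Cry1.

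Nr1d1 (r = -0.21, rho = -0.26, permutation p = 0.365, adjusted p = 0.426) and Per1 (r = -0.08, rho = -0.13, permutation p = 0.742, adjusted p = 0.742) did not pass. Without KO 14-day lungs 4 and 6, which lie farthest from the median of Arntl, r was 0.82 for Clock, 0.59 for Npas2, -0.57 for Per2, -0.69 for Per3, -0.57 for Nr1d2 and -0.64 for Dbp. Only Cry1 then missed the limit among the 7 (r = -0.43, adjusted p = 0.0974), so that this relation rests in part on those lungs. With the group means subtracted and labels permuted within groups, Npas2 missed the limit (r = 0.51, permutation p = 0.063, adjusted p = 0.107) and the other 6 passed.

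**Figure D2:**
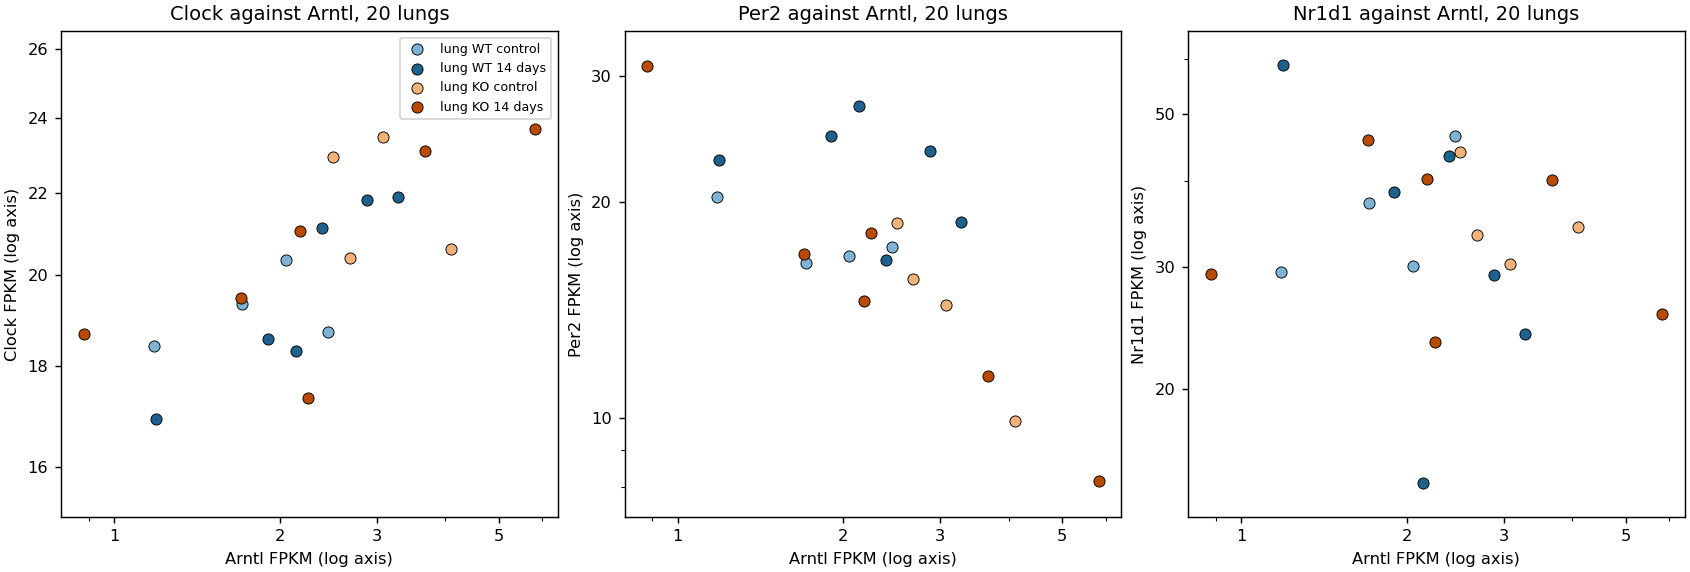
Clock, Per2 and Nr1d1 against Arntl in the 20 lungs, all in FPKM on log axes, with a point for each lung colored by group. Clock rises with Arntl (r = 0.85 on log2 CPM), Per2 falls (r = -0.76), and Nr1d1 shows no clear relation (r = -0.21).

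The directions were similar within both groups of 6 lungs, although none of the 34 within-group relations passed adjustment. Clock followed Arntl at r = 0.90 in WT 14-day lungs and r = 0.91 in KO 14-day lungs (exact permutation p = 0.00556 and 0.0167, adjusted p = 0.0944 and 0.126). Per2 gave r = -0.37 and -0.98, and Dbp r = -0.84 and -0.72. The control groups of 4 lungs are too small for a correlation. Other lists were set beside Arntl in the same lungs. With group means subtracted, r was 0.49 for the summed erythroid markers, 0.36 for the neutrophil markers, 0.35 for 12 glucocorticoid-responsive genes and 0.02 for 8 temperature-responsive genes. The part of these lists in the relations was not tested.

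Across the 12 tumors, 2 of 8 relations passed. Per1 rose with Arntl (r = 0.70, rho = 0.68, permutation p = 0.0132, adjusted p = 0.025), which it did not do in lungs, although the difference between tissues was not tested. Per2 ran against Arntl (r = -0.69, rho = -0.51, permutation p = 0.0121, adjusted p = 0.025) and Per3 missed the limit (r = -0.61, rho = -0.70, permutation p = 0.0362, adjusted p = 0.0616). Without the 2 tumors farthest from the median of Arntl, r was 0.76 for Per1 and -0.70 for Per2. Per2 missed the limit with the group means subtracted (r = -0.69, adjusted p = 0.0624). The glucocorticoid-responsive genes (r = 0.82), the neutrophil markers (r = 0.68) and the log2 of the total counts (r = 0.68) moved with Arntl in tumors, and their part in these relations was not tested. Within the groups of 6, Per1 gave r = 0.97 in tumors of KO hosts (exact permutation p = 0.00833, adjusted p = 0.0944) and r = 0.40 in those of WT hosts.

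**Figure D3:**
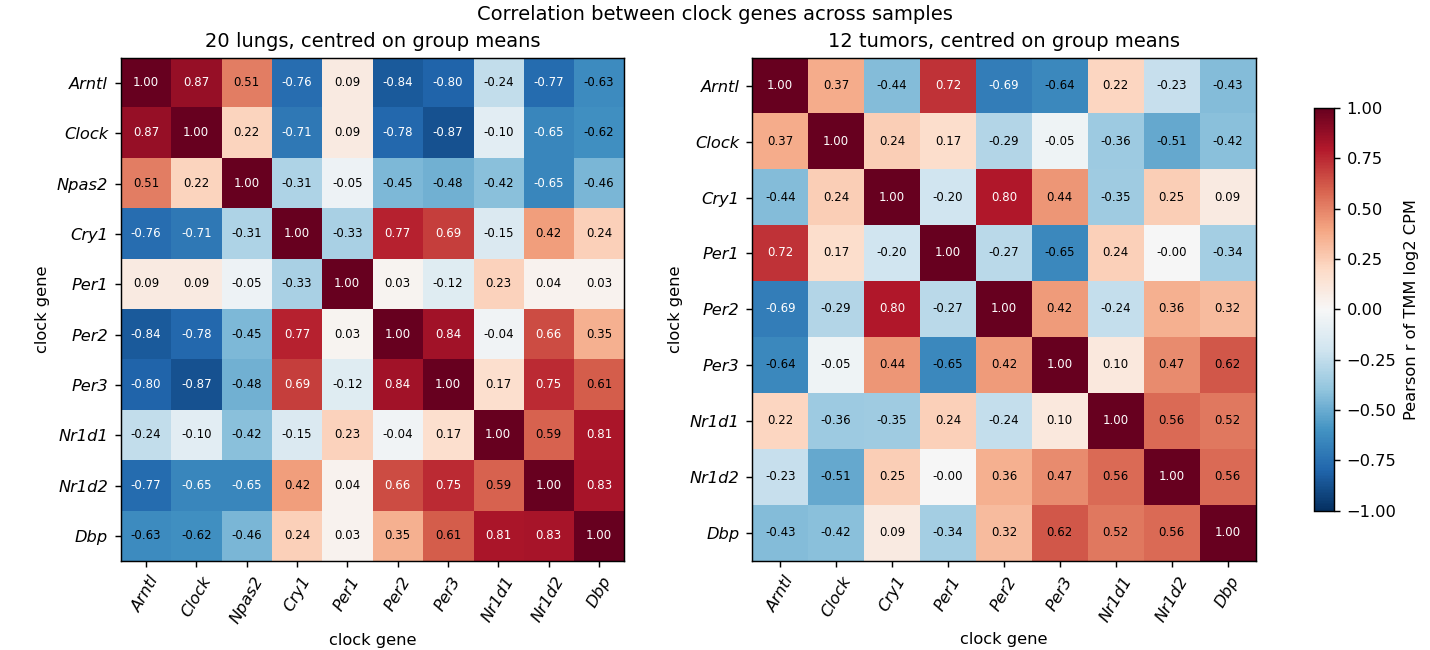
Pearson r between each pair of clock genes on log2 CPM with group means subtracted, for 20 lungs (10 genes) and 12 tumors (9 genes, without Npas2), red for positive and blue for negative. In lungs Arntl, Clock and Npas2 form 1 block and Cry1, Per2, Per3, Nr1d2 and Dbp another, with negative values between them.

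The 9 relations in lungs share Arntl and their libraries, and a principal component analysis of the members was run to describe the members without a single reference gene. With group means subtracted, component 1 held 56% of the variance in lungs. It placed Arntl (0.40), Clock (0.37) and Npas2 (0.26) opposite Per3 (-0.39), Nr1d2 (-0.37), Per2 (-0.36), Dbp (-0.32) and Cry1 (-0.31), with Per1 at 0.03. Component 2 (20.2%) set Nr1d1 (0.61), Dbp (0.38) and Per1 (0.33) against Cry1 (-0.39). In tumors the components held 41.8 and 25.5%. A difference from lungs was the place of Per1, which lay beside Arntl (0.33 and 0.44) on component 1.

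As a description without a test, all 16029 genes passing the filter in lungs were ranked by r with Arntl after subtraction of group means. The gene highest in the list was Clock (r = 0.87). It was followed by Fam124b (0.82), Ahcyl2 (0.79), Zbed4 (0.78), Mmp14 (0.78), Eef1g (0.77), Cnp (0.77) and Sae1 (0.77). The lowest were Tef (-0.91) and Hlf (-0.91), which encode PAR bZIP factors of the same family as DBP. Exph5 (-0.85), Per2 (-0.84), Cib2 (-0.84), Ppl (-0.83) and Per3 (-0.80) were also among the 8 lowest. Members outside these 16 genes included Nr1d2, Cry1 and Dbp at places 14, 15 and 125 from the lowest. Nr1d1 was only at place 3179 from the lowest. Npas2 and Per1 were at places 499 and 6036 from the highest. The median absolute r was 0.76 over the 9 members, 0.36 over 19 other clock genes, of which 16 were negative, and 0.20 over all genes. The glucocorticoid-responsive genes had a median of 0.29 and the temperature-responsive genes 0.06. All of these genes come from the same 20 libraries.

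The first comparison set lungs of mice with a tumor elsewhere against control lungs. A call required an FDR (Benjamini-Hochberg adjusted p of edgeR's quasi-likelihood test over all genes) below 0.25 in lungs, where the study set a looser limit, and below 0.05 in tumors and between tissues. Cry1, the cryptochrome that represses the Arntl and Clock pair, was higher in lungs of tumor-bearing mice. It was at 3.82, 4.52, 3.37 and 4.92 FPKM in the WT control lungs, and at 4.53 to 7.73 with a median of 6.58 in the 6 WT 14-day lungs. In KO mice it was at 3.07, 3.03, 3.44 and 3.8 FPKM in control lungs and at 3.5 to 8.64 with a median of 4.605 at 14 days. The ranges overlapped in both genotypes, and the 14-day medians were the higher ones.

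In WT lungs Cry1 rose by 0.61 on the log2 scale (SE 0.20, 1.53-fold, FDR = 0.233). It was the only member of 10 called there, where 2.33% of all genes were called and 1.18% were called higher. In KO lungs the difference was about as large, 0.64 (SE 0.21, FDR = 0.304), and missed the limit, so that none of the 10 members was called by edgeR, where 1.05% of all genes were. Cry1 alone had an unadjusted p under 0.05 there, and DESeq2 called it (FDR = 0.166). A fit with the replicate number as a block also called it (0.75, FDR = 0.0656). Lungs of 1 number are from different mice, and no control lung has number 5 or 6. The KO 14-day lungs with those numbers were the lowest of their group in Cry1 (3.95 and 3.5 FPKM). The KO rise was not called with limma (FDR = 0.62) or in a fit of the KO lungs alone (FDR = 0.42). It passed in 2 of 20 fits that left out 1 lung. The difference between the 2 responses was 0.03 (SE 0.28, FDR = 0.99). None of the members was called by edgeR in this interaction of genotype and tumor, where 0.0499% of all genes were, none had an unadjusted p under 0.05, and DESeq2 called 0.

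Averaged over both genotypes, a comparison added after the values were seen, Cry1 was 0.63 higher at 14 days (SE 0.14, 1.55-fold, FDR = 0.0632). In it 4.8% of genes were called and 2.48% were called higher. The averaged rise passed the limit in all 20 fits that left out 1 lung, at an FDR of 0.0341 to 0.152, but not with limma on log2(FPKM + 1) (0.49, FDR = 0.266). The WT call is less firm. It passed in 9 of 20 such fits, and not with limma (FDR = 0.492) or without the filter on low counts (FDR = 0.3). It did pass with DESeq2 (FDR = 0.146) and in a fit of the WT lungs alone (FDR = 0.168). The 6 neutrophil markers tested also rose over both genotypes, by 1.18 to 1.87, and their summed FPKM went from 69.03 to 154.2 in WT control lungs to 161.6 to 774.1 at 14 days, and from 102.3 to 182.0 to 56.48 to 807.8 in KO lungs. Ly6g was at 0 in the KO control lungs. With group means subtracted, Cry1 had r = -0.38 with the summed neutrophil markers and r = -0.44 with the glucocorticoid-responsive genes over the 20 lungs, and the part of either in the rise was not tested. All 12 of the glucocorticoid-responsive genes were lower at 14 days over both genotypes, with a median of -0.39, and 1 of them was called. Fewer cells of a type and less RNA per cell cannot be told apart in whole lung. The hour of sampling is not known, and it cannot be told apart from the presence of a tumor in this comparison.

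None of the other 9 members was called. Their differences at 14 days lay between -0.36 and 0.94 in WT lungs (FDR of at least 0.418) and between -0.14 and 0.31 in KO lungs (FDR of at least 0.764). The WT upper end was Npas2, at 0.15, 0.22, 0.23 and 0.12 FPKM in control lungs and 0.19 to 0.99 at 14 days, on 3 to 12 counts. Arntl was at 2.05, 1.18, 2.45 and 1.71 FPKM in WT control lungs and 1.19 to 3.28 at 14 days. The median difference of the 10 members was 0.21 in WT and 0.10 in KO lungs, against 0.00 over all genes in both.

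**Figure D4:**
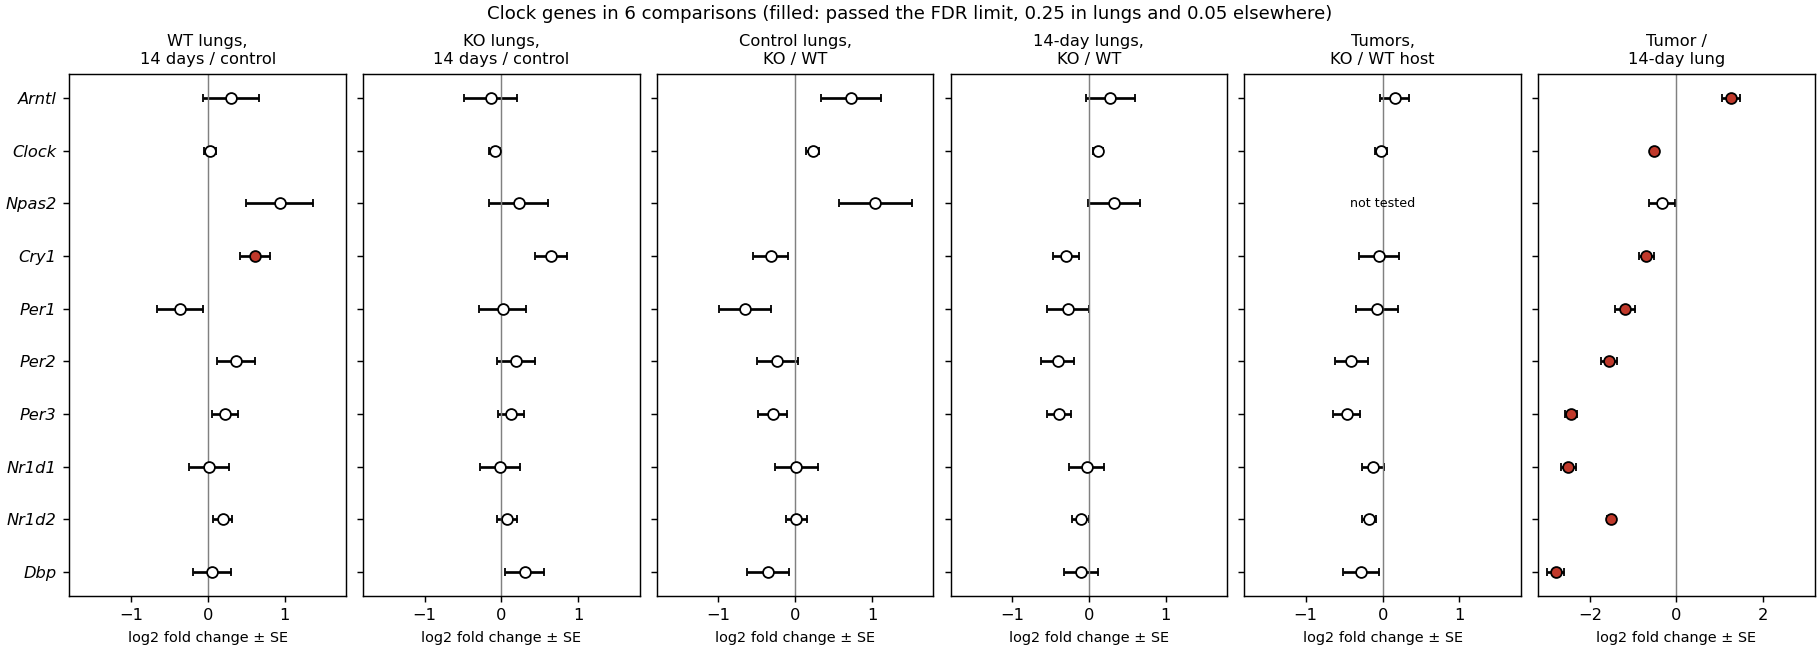
log2 fold change of each clock gene with its SE (bars) in 6 comparisons from edgeR, filled where the FDR passed. The panel between tissues has a wider axis. Cry1 in WT lungs is the only filled point within a tissue, and 9 of 10 are filled between tumor and lung.

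The next comparison asked whether the clock genes of lungs without a tumor differ by host genotype. Arntl was at 4.1, 3.08, 2.68 and 2.5 FPKM in KO control lungs, all above the WT lungs, of which the highest was at 2.45. Clock was at 20.62, 23.48, 20.39 and 22.95 FPKM in KO and at 20.34, 18.41, 18.71 and 19.33 in WT control lungs. Npas2 was at 0.6, 0.34, 0.4 and 0.61 in KO. These ranges did not overlap, with KO higher.

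Dbp, the output factor, lay the other way, with 38.11, 33.32, 42.52 and 45.36 FPKM in KO and 45.84, 48.4, 60.49 and 60.26 in WT control lungs, so that its highest KO value was just below the lowest WT value. Non-overlapping FPKM ranges were thus found in 4 of 10 members, against 5.23% of all symbols with a mean of at least 0.1 FPKM. For Npas2 and Dbp this rests on FPKM. Npas2 had 13, 7, 10 and 3 counts in KO and 5, 5, 5 and 3 in WT control lungs, so that the lung with its highest FPKM held only 3 counts. As counts over the library total, Dbp was at 38.56 to 50.36 CPM in KO and 47.84 to 65.51 in WT control lungs, and these ranges overlapped. On that scale Per1, a fast-responding period gene, was separate instead, at 96.31 to 162.1 CPM in KO and 166.3 to 248.7 in WT lungs, although it overlapped in FPKM (33.74 to 61.22 and 52.72 to 79.74). Per3 was also separate in CPM, at 85.07 to 107.3 in KO and 107.5 to 129.3 in WT lungs, and overlapped in FPKM (18.29 to 25.39 and 23.09 to 28.66). Arntl and Clock were separate on both scales. Nr1d1 (30.33 to 43.95 against 29.55 to 46.38) and Nr1d2 (39.79 to 56.08 against 46.47 to 52.96) also overlapped.

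In the edgeR fit of all 20 lungs, 0 of 10 members were called, where 0.973% of genes were. Clock and Npas2 had an unadjusted p under 0.05, and DESeq2 called 1 member, Clock (0.23, FDR = 0.183). The log2 difference, KO minus WT, was 0.73 for Arntl (SE 0.39, FDR = 0.47), 0.23 for Clock (SE 0.08, FDR = 0.328), 1.04 for Npas2 (SE 0.47, FDR = 0.406) and -0.65 for Per1 (SE 0.34, FDR = 0.461). The fit of 20 lungs shares 1 estimate of spread over all 4 groups. In a fit of the 8 control lungs alone, 5 of the 9 members tested were called, where 7.82% of genes were. They were Arntl (0.73, SE 0.22, FDR = 0.189), Clock (0.23, FDR = 0.144), Per1 (-0.65, FDR = 0.13), Per3 (-0.29, FDR = 0.185) and Dbp (-0.35, FDR = 0.194). That fit also tested fewer genes, 15202 against 16029, and which of these changes moved the calls was not tested.

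At 14 days no group of lungs stood apart. Arntl spanned 0.88 to 5.82 FPKM in KO and 1.19 to 3.28 in WT lungs, and the KO range enclosed the WT one. Per3 spanned 12.61 to 28.33 FPKM in KO lungs, with a median of 27.3, and 23.4 to 37.79 in WT lungs, with a median of 31.3. None of the 10 members was called by edgeR or DESeq2, where edgeR called 0.861% of all genes, and 1 member, Per3, had an unadjusted p under 0.05. Per3 was -0.39 (SE 0.15, FDR = 0.487) and Per2 -0.41 (SE 0.22, FDR = 0.66), with Cry1 at -0.29 (SE 0.17, FDR = 0.71). Without KO 14-day lung 4, the lung with the lowest Arntl and the highest Per2 and Cry1, Per2 (-0.67, FDR = 0.189) and Cry1 (-0.50, FDR = 0.232) were both called, where 1.07% of all genes were. This was 1 of 20 fits that each left out 1 lung, and the only 1 in which Cry1 passed. Since that lung held the highest values of both genes, leaving it out was bound to lower their KO means. The summed cardiac muscle markers were at 253.6 to 329.6 FPKM in these KO lungs and 326.5 to 482.2 in the WT lungs, and their part was not tested.

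Between tumors of KO and WT hosts, none of the 9 members tested was called by edgeR or DESeq2 at an FDR of 0.05, where edgeR called 2.51% of genes. Only Per3 had an unadjusted p under 0.05. Per3 came closest, at 3 to 6.29 FPKM with a median of 3.475 in KO hosts and at 4.11 to 7.5 with a median of 5.31 in WT hosts, and these ranges overlapped. Its log2 difference was -0.47 (SE 0.17, FDR = 0.204). Per2, at 3.3 to 8.47 FPKM in KO and 5.96 to 10.94 in WT hosts, gave -0.41 (SE 0.22, FDR = 0.393). The other 7 lay between -0.28 and 0.16, with Arntl at 3.66 to 8.24 FPKM in KO and 3.66 to 7.16 in WT hosts. Npas2 had too few counts for the test.

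The last comparison was between tissues, of tumors with 14-day lungs averaged over genotype. Arntl was higher in tumors (3.66 to 8.24 FPKM, median 5.905) than in 14-day lungs (0.88 to 5.82, median 2.215). Its partner Clock was lower, as were Cry1, Nr1d1, Nr1d2, Dbp and the Per genes. Of the members, 9 of 10 were called, 8 lower and 1 higher in tumors. Background shares were 82% of all genes called, 41.2% lower and 40.7% higher, since lung and tumor differ in most genes.

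Dbp was at 3.19 to 12.68 FPKM in tumors and 27.05 to 105.6 in 14-day lungs, a difference of -2.79 (SE 0.19, FDR = 6.46e-13). Nr1d1 went from 14.68 to 58.69 FPKM in lungs to 5.16 to 8.25 in tumors (-2.50, SE 0.18, FDR = 6.86e-13), and Per3 from 12.61 to 37.79 to 3 to 7.5 (-2.44, SE 0.14, FDR = 5.36e-15). Nr1d2 was at 34.95 to 65.01 FPKM in lungs and 12.96 to 21.84 in tumors (-1.51, SE 0.08, FDR = 3.24e-15). For these 4 genes no tumor reached any 14-day lung, a separation seen for 28.1% of all symbols.

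Per2 (-1.56, SE 0.18, FDR = 9.7e-09), Per1 (-1.18, SE 0.23, FDR = 3.67e-05), Cry1 (-0.70, SE 0.17, FDR = 0.000584) and Clock (-0.52, SE 0.06, FDR = 4.69e-09) were lower by less, with ranges that overlapped. Arntl was 1.27 higher (SE 0.21, FDR = 4e-06), and Npas2 was not called (-0.33, SE 0.29, FDR = 0.309). Summed lung epithelium markers differed between these tissues from 34170 or more FPKM in 14-day lungs to 3.24 or less in tumors, and the part of cell composition in the clock genes was not tested.

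Among 21 other clock genes listed from textbook knowledge, 19 passed the filter in lungs. None was called by edgeR in the comparisons among lungs, where 0.0499 to 4.8% of all genes were. From 0 to 4 of the 19 had an unadjusted p under 0.05, against 1337 to 1920 of all 16029 genes. In tumors 17 were tested and 2 were called, where 2.51% of all genes were. Nampt, which encodes an enzyme of NAD synthesis under clock control, was at 24.78 to 42.84 FPKM in KO and 23.56 or less in WT hosts (0.63, SE 0.12, FDR = 0.00818). Noct, an output gene listed in the files under its older symbol Ccrn4l, was at 118.5 to 169.8 against 166.3 to 210.1 (-0.38, SE 0.08, FDR = 0.0153). Nampt moved up and Noct down, so that no single direction described the pair.

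Between tissues 18 of the 19 tested were called, 9 lower and 9 higher in tumors, beside the 82% of all genes called there. Among the lower were Hlf (-4.29), Ciart (-2.87), Tef (-2.52), Rora (-2.33), Cry2 (-2.17) and Usp2 (-1.87). Btrc (-0.52) and Csnk1e (-0.22), which act on the stability of the clock proteins, were also lower. Among the higher were Fbxl21 (2.46), Nfil3 (1.70), Noct (1.41), Bhlhe40 (0.92), Wee1 (0.56), Timeless (0.50), Csnk1d (0.35) and Nampt (0.28). Nfil3 encodes a repressor that competes with DBP for D-boxes. Bhlhe41 was not called (0.06).

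A contrast of both arms of the loop gave each sample a single value. It was the mean log2(FPKM + 1) of Arntl, Npas2 and Clock minus that of Nr1d1, Nr1d2, Dbp and Per3, and is given as a description without a test. In WT control lungs it was between -3.43 and -3.09, and in KO control lungs between -3.03 and -2.53, so that these groups did not overlap. They overlapped on TMM-normalized log2 CPM. At 14 days the contrast spread over -4.14 to -2.63 in WT and -3.53 to -1.94 in KO lungs, each range enclosing or crossing that of its control group. In tumors it was between -1.38 and -0.62 in WT hosts and between -1.01 and -0.05 in KO hosts. The mean difference, KO minus WT, was 0.50 in control lungs (pooled SD within groups 0.20), 0.21 at 14 days (0.57) and 0.36 in tumors (0.34). The mean at 14 days minus that of control lungs was 0.13 in WT mice (pooled SD 0.44) and -0.16 in KO mice (0.49). With a sample left out, the difference between genotypes at 14 days lay between -0.0008, without KO 14-day lung 6, and 0.318, and was also close to 0 without WT 14-day lung 4. Those against control lungs lay between 0.0241 and 0.327 in WT and between -0.367 and -0.0479 in KO mice. In the control lungs, where Arntl did not overlap between genotypes, Nr1d1 (0.01, SE 0.28) and Nr1d2 (0.02, SE 0.14) differed by less than their errors, while Dbp (-0.35) and Per3 (-0.29) were lower in KO mice and called in the fit of those 8 lungs alone. Whether the hour of sampling differed between groups was not tested, since no label gives it. Hour cannot be told apart here from genotype, or from the presence of a tumor where 14-day and control lungs are compared.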

How the data were processed

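Stranded mRNA libraries of 32 samples were aligned by the authors to mm10 with STAR and quantified with RSEM. The deposited tables hold expected counts as whole numbers without normalization, and FPKM as RSEM gives it. Counts were tested with edgeR 4.0.16 (quasi-likelihood, TMM, filterByExpr) in 1 fit of 20 lungs, 1 of 12 tumors, and 1 of 24 tumors and 14-day lungs. Alternatives were DESeq2 1.42.0, RLE factors, no filter, limma 3.58.1 on log2(FPKM + 1), other limits, a replicate block, the compared groups alone and each sample left out. The study describes the animals of each genotype as independent, and whether a tumor and a lung share a mouse is not stated. edgeR was tested on simulated data at the depth of each fit. Correlations used scipy 1.17.1 and log2 CPM with a prior count of 2. Overlapping genes can share reads in part, namely Camta1 on the strand of Per3, and Thra and Sphk2 opposite Nr1d1 and Dbp. All 10 members were named. Genes beyond them were named where a listed clock gene was called, and as the 8 highest and 8 lowest by r with Arntl. The members and lists were chosen with earlier results of these data known. All 72 pairs of replicates differed by more than sampling noise (a chi-squared ratio of 2.43 or more). Sequences are from RefSeq, GRCm38.p6. No promoter of Per2 was used here. Some genes that the naming rule would include are not reported here.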

Additional observations from a re-analysis of the deposited data

Results flagged for a closer look

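In 4 of 66 groups tested (each member and the contrast of both arms, in each of 6 groups), 1 sample lay far from the others by Dixon's 95% limit, and chance alone gives about 1 in 20. Dbp was at 27.05 FPKM in KO 14-day lung 6 and at 47.39 to 59.05 in the other 5. Npas2 was at 0.99 FPKM in WT 14-day lung 5 and at 0.19 to 0.46 in the others, on few counts. Per1 was at 102.3 FPKM in WT 14-day lung 3 and at 34.43 to 59.11 in the others. Nr1d1 was at 5.61 FPKM in tumor 5 of the WT hosts and at 7.5 to 8.25 in the others.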

How the results depend on the processing

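Among counts of members, contrasts and correlation counts, 200 of 214 values with a sample left out and 63 of 78 under other alternatives kept their direction and stayed within the margin set for a move. The number of members called in KO lungs at 14 days went from 0 to 1 with DESeq2 and with the replicate block, and lay between 0 and 1 with a lung left out, with 1 without KO 14-day lung 6 or WT 14-day lung 5. In WT lungs it went from 1 to 0 without the filter, with limma on log2(FPKM + 1) and at an FDR of 0.05, and lay between 0 and 1 with a lung left out. In control lungs it went from 0 to 1 with DESeq2 and to 5 in the fit of those 8 lungs alone. Between genotypes at 14 days it lay between 0 and 2, with 2 without KO 14-day lung 4, where 172 of all 16073 genes were called. Averaged over genotypes it went from 1 to 3 with the replicate block, which added Per3 (0.32, FDR = 0.17) and Nr1d2 (0.23, FDR = 0.18) to Cry1 (0.75, FDR = 0.0058) while the calls over all 16029 genes went from 769 to 1191, and to 0 with limma and at an FDR of 0.05, and in tumors from 0 to 1 at an FDR of 0.25, where 1446 of all 13830 genes were called. The contrast between control lungs was 0.82 with log2(FPKM + 0.1) and 0.95 for Arntl against Dbp alone. Relations passing in tumors went from 2 to 1 both with group means subtracted and with log2(FPKM + 1). The cause was not tested in any of these.

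The interaction for Cry1 (0.03) was -0.00254 with the replicate block and -0.0504 with limma, and -0.176 to 0.126 with a lung left out. Its difference between tumors was -0.232 to 0.0747 with a tumor left out. The relation of Arntl and Per1 in lungs was 0.0904 with group means subtracted. Of 52 further values with a p of 0.1 or more, 20 changed sign under some setting.

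Over all genes, DESeq2 called 311, 451, 178 and 549 against 169, 156, 8 and 347 with edgeR for the KO response, control genotype, interaction and tumors. With the replicate block these counts were 513, 98, 1 and 257, against 373 and 582 in the WT response without and with it. Among lungs, numbers 5 and 6 occur only at 14 days, so the block gives those lungs no control lung of the same number. A fold limit of 1.5 (2 between tumors and between tissues) left 42, 92, 34, 37, 5, 92, 146 and 6050 genes in the order KO response, WT response, genotype at 14 days, genotype in control lungs, interaction, both genotypes, tumors and tissues. No combination of groups had r over 0.1 across all genes in every same-numbered pair, KO 14-day lungs and KO-host tumors coming to 0.05 to 0.21, so the numbers were not treated as pairs, apart from the block shown here. Low counts limit the precision of Arntl and Npas2.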

Other observations

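Tumors and 14-day lungs with the same host genotype and replicate number were set side by side after the values had been seen. The labels do not say that a number marks 1 mouse. In KO hosts (n = 6), 6 of 9 members had a positive correlation that passed adjustment over the 9. The members also vary together among themselves, so these are not separate results. At an exact permutation p under 0.05, a positive r was found for 6 of the 9 members and for 616 (4.62%) of all 13342 genes in KO hosts, and for 0 and 334 (2.5%) in WT hosts. Per2 gave r = 0.97 and rho = 1 (exact permutation p = 0.00139, adjusted p = 0.0125), and r = 0.96 without the 2 lungs farthest from the median. Cry1 gave r = 0.93, rho = 0.94 (exact permutation p = 0.00556, adjusted p = 0.0156) and r = 0.83 without those lungs, Per1 r = 0.92, rho = 0.94 (exact permutation p = 0.00556, adjusted p = 0.0156) and r = 0.91. Dbp gave r = 0.81, rho = 1 (exact permutation p = 0.00694, adjusted p = 0.0156) and r = 0.98. Nr1d1 gave r = 0.86, rho = 0.77 (exact permutation p = 0.0264, adjusted p = 0.0458) and r = 0.71. Per3 gave r = 0.85, rho = 0.83 (exact permutation p = 0.0306, adjusted p = 0.0458), which fell to r = 0.45 without the 2 lungs and so rests on them. Arntl (r = 0.68), Nr1d2 (r = 0.59) and Clock (r = 0.57) did not pass. In WT hosts (n = 6) none of the 9 passed, with r between -0.43 for Dbp and 0.74 for Per1 and an adjusted p of at least 0.812. The difference between KO and WT hosts was not tested. Over all 12 pairs with group means subtracted, only Per1 passed (r = 0.83, rho = 0.84, permutation p = 0.00143, adjusted p = 0.0129, and r = 0.79 without the 2 farthest).

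Over all genes, same-numbered KO lungs and tumors deviated together only weakly, with r of 0.05 to 0.21, and 5 of 6 lungs had their own number highest. Over the 9 members alone r was 0.57 to 0.90. In WT hosts the values were -0.02 to 0.11 over all genes and -0.26 to 0.55 over the members. Same-numbered samples of different hosts, which cannot share a mouse, also deviated together over the members in some pairs. KO 14-day lungs and tumors of WT hosts gave a median r of 0.55 (-0.56 to 0.94, with 3 of 6 own numbers highest), and tumors of WT and KO hosts a median of 0.62 (-0.71 to 0.83).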
